A study of Mus musculus with 12 samples.

Results

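The nuclear genes for the machinery of oxidative phosphorylation were examined in newborn mouse skull. The set was taken by name from the deposited count table. It holds every gene whose symbol begins with Nduf, Uqcr, Atp5 or Cox4 to Cox8, together with Sdha, Sdhb, Sdhc, Sdhd and Cycs, and it comes to 91 of the 23358 rows. Of these, 81 code for subunits: 36 of complex I, 4 of complex II, 8 of complex III, 18 of complex IV and 15 of complex V. Cytochrome c (Cycs) stands between complexes III and IV. The name rule also brought in 4 assembly factors of complex I (Ndufaf1 to Ndufaf4) and 5 genes that are not counted here as subunits (Cox4nb, Cox7a2l, Ndufa4l2, Atp5s and Atp5sl). Ndufa4 was placed in complex IV, where its protein is now known to sit. Subunits encoded by mitochondrial DNA do not carry these names and were not analysed here.

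At postnatal day 3 the frontal bone was collected, including nasal bone and 2 sutures, the coronal and the frontonasal. Mice were wild type or heterozygous for the C342Y change in the fibroblast growth factor receptor gene Fgfr2, used to model Crouzon syndrome, a disorder of premature suture fusion. Both genotypes were studied on the C57BL/6 and on the BALB/c background, with 3 samples in each of the 4 groups: C57BL/6 wild type (replicates 1 to 3), C57BL/6 mutant (4 to 6), BALB/c wild type (13 to 15) and BALB/c mutant (16 to 18). The comparisons address what the mutation changed in these genes within each strain, and what separated the strains within each genotype. The labels give neither the sex of the mice nor whether each sample was 1 animal, so p-values measure the spread between samples, which may be in part technical. Gene counts cannot show a base change in 1 copy of Fgfr2, so the genotype labels were not checked.

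Complex I takes electrons from NADH and complex II, succinate dehydrogenase, takes them from succinate. Complex III passes them to cytochrome c, complex IV hands them to oxygen, and complex V, the ATP synthase, uses the proton gradient built on the way to make ATP. Most of the subunits are encoded in the nucleus and their genes are active in nearly every cell type, while a few complex IV subunits have second forms that are restricted to muscle, lung or testis. In bone, osteoclasts are known for being rich in mitochondria, and osteoblasts use both glycolysis and respiration.

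Total gene counts ran from 27181658 to 46521546 per sample. All C57BL/6 samples carry 1 run identifier and all BALB/c samples another, so strain and sequencing run cannot be told apart. Bone markers were high in all 12 samples: the sum over 9 osteoblast and matrix genes was 113532 to 262367 CPM, the usual counts-per-million scale with TMM-adjusted library sizes. The C57BL/6 wild type samples differed from the C57BL/6 mutants in other markers, and in epithelial ones from all other samples. Their summed level of 7 epithelial genes was 123 to 302 CPM, against 3.40 to 68.6 CPM in the C57BL/6 mutants and at most 6.12 CPM in any BALB/c sample. Their 4 cartilage genes summed to 4437 to 6523 CPM, against 250 to 2511 CPM in the C57BL/6 mutants and 564 to 4638 CPM in BALB/c. Their 7 osteoclast genes summed to 3471 to 4240 CPM, against 7311 to 8152 CPM in the C57BL/6 mutants and 4194 to 4984 CPM in BALB/c. Y-linked transcripts were present in 3 of 3 C57BL/6 wild type samples and in 1 of 3 samples of each other group. In such bulk samples, fewer cells of a type and less RNA per cell cannot be told apart.

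Promoters of respiratory genes are known for sites of the nuclear respiratory factor NRF1 and of the ETS factor GABP. RefSeq windows of GRCm38.p6, running from 250 bases before to 50 after a start site, were found for 75 of the 91 genes. Both strands were searched. The NRF1 word, the capitals of the Ndufa11 line, was in 6.9% of the 72 windows of 67 subunit genes and in 1.33% of 21263 windows of all protein-coding genes. Its looser form, with any base at the fifth position and so including the first, was in 25% and 6.38%. The ETS word CCGGAAG was in 22.2% and 11.56%, the YY1 word AAGATGGCG in 9.7% and 1.83%, and the word TCAAGGTCA of the estrogen-related receptors in 2.8% and 0.33%. The SP word GGGCGG was in 38.9% and 46.2%, so it was not more frequent in the subunit windows. A match is a description of letters, not a site shown to be bound. The sequences below show what such matches look like upstream of genes described later, 1 or 2 for each of complexes I, II, III, IV and V. Capitals mark the match, and a word is printed in the direction of the gene, so a word found on the other strand appears as its reverse complement (CTTCCGG for the ETS word).
Ndufa11, complex I, NRF1, chr17:56717692-56717721, plus strand: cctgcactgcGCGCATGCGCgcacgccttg
Sdha, complex II, NRF1 looser form, chr13:74350276-74350305, minus strand: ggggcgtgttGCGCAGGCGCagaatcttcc
Sdhd, complex II, ETS, chr9:50603879-50603905, minus strand: cgtctcctgcCTTCCGGttcacgcttc
Uqcr11, complex III, ETS, chr10:80406871-80406897, minus strand: tctctcctccCCGGAAGtagatgtcaa
Cox6a1, complex IV, NRF1, chr5:115349101-115349130, minus strand: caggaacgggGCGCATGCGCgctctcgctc
Atp5g2, complex V, NRF1, chr15:102671070-102671099, minus strand: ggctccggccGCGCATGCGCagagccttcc
Atp5g3, complex V, estrogen-related receptor, chr2:73911360-73911388, minus strand: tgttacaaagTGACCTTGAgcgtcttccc

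The broadly expressed genes were among the more abundant transcripts of this tissue. Levels between genes are compared as CPM per kilobase of coding length, averaged over the 12 samples with the SD over them. Of the 75 genes for broad subunits and cytochrome c, 69 lay at or above the 90th percentile of all rows, with a median of 63.6 CPM per kb. In complex V the highest was Atp5b, the catalytic beta subunit, at 315 ± 22.1 (SD, n = 12), and the lowest was Atp5c1, the gamma subunit, at 65.6 ± 7.01 (SD, n = 12). In complex IV Cox4i1 led at 253 ± 38.9 (SD, n = 12), followed by Cox6a1 at 205 ± 21.7 (SD, n = 12) and Cox8a at 177 ± 46.6 (SD, n = 12). These SDs hold the difference between groups. Within groups Cox4i1 was clear of Cox6a1 in BALB/c mutants (274 ± 9.50 against 218 ± 12.1), and Cox6a1 was clear of Cox8a in C57BL/6 wild type (176 ± 17.3 against 119 ± 6.02) but not in BALB/c mutants, where Cox8a stood at 220.3 ± 2.00 (SD, n = 3 each).
In complex III Uqcrh, the hinge protein, was highest at 148 ± 18.7 (SD, n = 12) and the Rieske protein gene Uqcrfs1 lowest at 46.1 ± 7.87 (SD, n = 12). In complex II, Sdhc stood at 58.5 ± 4.41, Sdhb at 55.6 ± 3.39, Sdhd at 52.7 ± 5.88 and Sdha, the flavoprotein, at 50.9 ± 5.84 (SD, n = 12 each). Within a group the order varied: in BALB/c wild type Sdhc stood at 61.8 ± 2.59 and Sdha at 45.3 ± 0.643, and in C57BL/6 mutants at 59.9 ± 1.06 and 59.6 ± 0.982 (SD, n = 3 each). Complex I genes ran from Ndufa2 at 81.2 ± 10.6 (SD, n = 12) down to Ndufa11 at 10.2 ± 0.644 (SD, n = 12), with Ndufs5 far below at 1.68 ± 1.36 (SD, n = 12). Cycs stood at 20.4 ± 1.74 (SD, n = 12). The complex I assembly factors lay below every complex I subunit except Ndufs5, from Ndufaf2 at 9.29 ± 1.10 (SD, n = 12) to Ndufaf4 at 2.83 ± 0.375 (SD, n = 12).

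Summed by complex, the genes of complexes I, III and V held nearly the same shares in each sample. CPM here is scaled by TMM, a trimmed mean of log ratios between libraries that leaves out genes of extreme ratio or extreme abundance. Complex V made up 42.86% to 44.32% of the 5-complex sum in the 12 samples, complex I 23.8% to 25.27% and complex III 9.67% to 10.13%. The shares of complexes II and IV differed between the strains. Complex II took 6.83% to 7.29% in C57BL/6 and 5.77% to 6.30% in BALB/c, while complex IV took 14.55% to 15.04% and 16.69% to 17.19%. For both complexes the ranges of the strains did not overlap. Strain and run cannot be told apart, and these shares were not corrected for coding length, with which the strain difference moved, as described below. Once coding length was modelled, the median log2 strain difference in wild type went from 0.20 to -0.04 for complex II. For complex IV it went from 0.38 to 0.07.

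**Figure D1:**
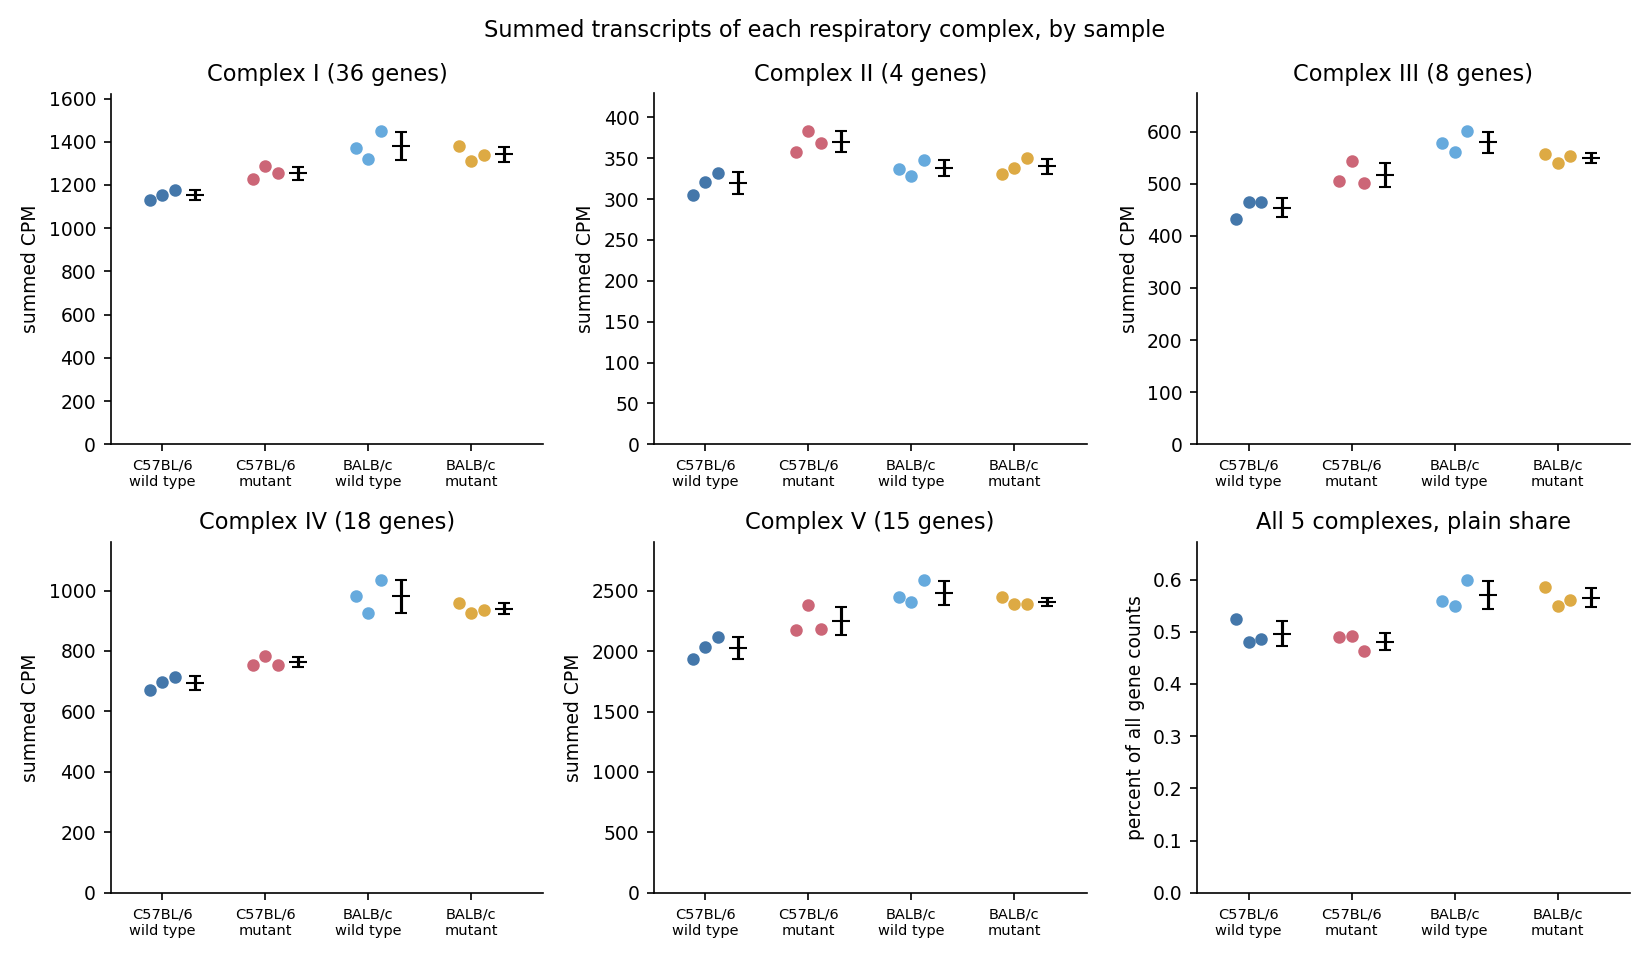
Each of 5 panels plots the summed CPM of a complex (y axis, from 0) by group (x axis), with 1 point per sample and a bar for the mean and SD of 3 samples, and the last panel plots the 5-complex sum as a plain percent of all gene counts. On the CPM scale the C57BL/6 mutants lie above the C57BL/6 wild type samples in each complex, while on the plain share the mutants lie at 0.463% to 0.492% and overlap the wild type samples at 0.480% to 0.524%.

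Over the 5 complexes the C57BL/6 samples summed to 4475, 4667 and 4801 CPM in wild type and 5019, 5380 and 5063 CPM in mutants, with no overlap. The BALB/c samples stood at 5717, 5541 and 6026 CPM in wild type and 5675, 5506 and 5562 CPM in mutants, with overlap. The means differed by 10.9% between the C57BL/6 groups and by -3.1% between the BALB/c groups. Among the C57BL/6 groups the difference was 15.8% for complex II, 14% for complex III, 10.9% for complex V, 10.2% for complex IV and 8.8% for complex I. As plain shares of all counts, without TMM, the C57BL/6 groups overlapped. In these libraries 10 genes alone held 23.5% to 29.3% of all counts in wild type and 30.7% to 33.3% in mutants.

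In the C57BL/6 mutants more of these genes were higher than lower. Of the 87 genes that passed the low count filter, 22 (25.3%) changed at an adjusted p under 0.05 (edgeR's quasi-likelihood test with Benjamini-Hochberg adjustment), which is near the 23.9% of all 16190 genes called in this comparison. The direction was uneven: 20 rose (23.0%, against 11.3% of all genes) and 2 fell (2.3%, against 12.6%). The median log2 fold change of the 87 was 0.12, against 0.00 over all genes, so the typical size was small, and under total-count scaling, which lowers the median of all genes by 0.197, it turned to -0.08 with 9 genes called, all lower, where 28.9% of all genes were called. The directions below are on the TMM scale, relative to the bulk of genes, and only Cox4nb and Ndufaf3 kept their call with total counts, where Atp5g2, Ndufa10, Sdhc, Uqcrc1 and Uqcrc2 turned in sign. With only the 2 C57BL/6 groups in the fit, 3 genes were called (Cox7a2l, Cox8a and Uqcrfs1), all higher, where 9.21% of all genes were called.

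Complex III, which feeds cytochrome c, had 6 of 8 genes higher, where 11.3% of all genes were called higher. Uqcrfs1, the Rieske iron-sulfur protein (chromosome 13, 30540312 to 30545316), measured 44.6, 46.3 and 47.3 CPM in wild type and 55.5, 58.8 and 56.4 CPM in mutants. All mutants lay above all wild type samples, and the log2 difference was 0.30 ± 0.05 (SE, n = 3 per group, adjusted p = 0.00187). Uqcrq, a small subunit, rose from 27.4, 31.4 and 30.0 CPM to 36.5, 36.2 and 33.6 CPM, again without overlap (log2 0.26 ± 0.07, adjusted p = 0.0213). Uqcr10 (0.24), Uqcr11 (0.20) and the core proteins Uqcrc1 (0.18) and Uqcrc2 (0.17) were also called higher. Uqcrb (0.22, adjusted p = 0.0558) and Uqcrh (0.07, adjusted p = 0.494) were not. Their partner cytochrome c1, Cyc1, which the name rule does not include, rose by 0.24 (adjusted p = 0.034), and cytochrome c itself did not pass (Cycs, 0.04 ± 0.10, adjusted p = 0.771), with overlapping ranges of 52.1 to 65.5 and 56.1 to 70.2 CPM.

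Complex II, shared by the respiratory chain and the citric acid cycle, had 3 of 4 genes higher, against 11.3% of all genes. Sdha, the catalytic flavoprotein (chromosome 13, 74322255 to 74350240), measured 137, 149 and 150 CPM in wild type and 168, 174 and 170 CPM in mutants. The groups did not overlap, and the log2 difference was 0.23 ± 0.05 (SE, adjusted p = 0.0106). Sdhd, a membrane anchor, rose from 54.5, 56.0 and 60.6 CPM to 62.3, 73.4 and 66.01 CPM (log2 0.24 ± 0.06, adjusted p = 0.0209). The other anchor, Sdhc, measured 58.8, 61.8 and 64.9 CPM against 70.3, 72.0 and 69.6 CPM (log2 0.19 ± 0.06, adjusted p = 0.0343). For the iron-sulfur subunit Sdhb the mutants were also all above the wild type samples, at 56.8, 64.2 and 63.9 against 55.1, 54.5 and 56.3 CPM, but it did not pass (0.16 ± 0.06, adjusted p = 0.0712).

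In complex I, 5 of 36 genes were called, all higher, where 23.9% of all genes were called and 11.3% were called higher. Among them were the accessory subunits Ndufb11 (0.26 ± 0.06, adjusted p = 0.0101) and Ndufb2 (0.41 ± 0.12, adjusted p = 0.0241), and Ndufa9 (0.21) and Ndufa10 (0.16). The median over the 36 was 0.10, with 29 of them above 0. Of the 4 assembly factors 1 was called, and it was lower. Ndufaf3 measured 10.6, 7.89 and 8.74 CPM in wild type and 6.96, 4.95 and 5.01 CPM in mutants. It fell by 0.69 (log2, SE 0.18, adjusted p = 0.0211), the largest change among the called genes, and this direction was also seen with total counts. Ndufaf4 had a log2 difference of -0.34 ± 0.12 (adjusted p = 0.0653), and Ndufaf1 (-0.10) and Ndufaf2 (0.19) overlapped between the groups.

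Complex IV had 2 of 14 tested genes higher and none lower, where 23.9% of all genes were called and 11.3% were called higher. Cox8a (chromosome 19, 7215158 to 7217616) measured 62.1, 68.6 and 64.5 CPM in wild type and 79.5, 84.2 and 80.5 CPM in mutants. The groups were apart, and the log2 difference was 0.32 ± 0.06 (SE, adjusted p = 0.00331). Cox4i1, a regulatory subunit, measured 130, 133 and 151 CPM against 166, 162 and 160 CPM (log2 0.24 ± 0.07, adjusted p = 0.0277). The next gene on the same stretch of chromosome 8, Cox4nb, is an older name of Emc8, a membrane protein of the endoplasmic reticulum and no subunit, and fell by 0.28 (log2, SE 0.09, adjusted p = 0.0349). In the GENCODE annotation the 2 genes overlap on opposite strands, and the sources used here do not give the strand setting of the counting, so reads in the overlap could count for either. Cox7a2l, a factor that joins complexes III and IV into larger assemblies, rose from 78.8, 79.6 and 82.1 CPM to 95.1, 91.3 and 94.5 CPM (log2 0.22 ± 0.05, adjusted p = 0.00857).

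Complex V had 3 of 15 genes higher, against 11.3% of all genes. Atp5d, the delta subunit, measured 73.4, 87.1 and 87.3 CPM in wild type and 98.8, 99.4 and 100.1 CPM in mutants (log2 0.27 ± 0.07, adjusted p = 0.0158). The wild type samples were more spread than the mutants and all lay below them. Of the 3 genes that code for the same c-ring subunit, Atp5g3 (0.20, adjusted p = 0.0439) and Atp5g2 (0.15, adjusted p = 0.0494) were called just inside the threshold and Atp5g1 (0.16, adjusted p = 0.173) was not. The abundant catalytic genes Atp5a1 (0.19, adjusted p = 0.0503) and Atp5b (0.16, adjusted p = 0.105) did not pass, although all their mutants lay above all their wild type samples. The CPM ranges of the 2 groups were apart with mutants above in 32 of the 87 genes, against 19.7% of all genes, and with mutants below in 4, against 21.9%.

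**Figure D2:**
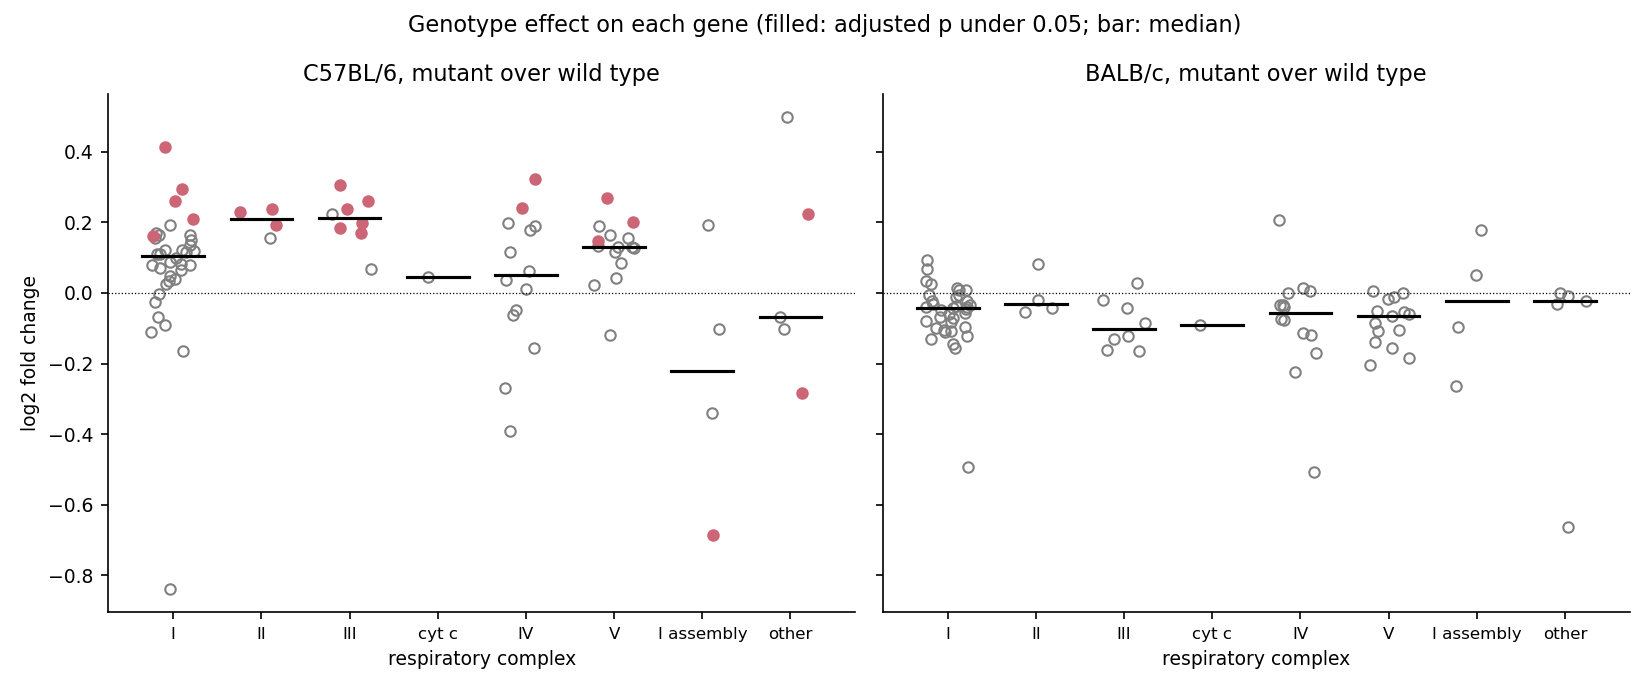
Each point is the log2 fold change (y axis, mutant over wild type) of 1 of the 87 tested genes, by respiratory complex (x axis), in C57BL/6 (left) and BALB/c (right). Filled points passed an adjusted p of 0.05, and bars are medians. The medians of complexes II and III stand at 0.21 in C57BL/6 on this TMM scale, no point is filled in BALB/c, and with total counts the C57BL/6 median over the 87 turned from 0.12 to -0.08.

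The count in C57BL/6 rested on single samples. It was 8 without wild type replicate 1, 8 without mutant replicate 5 and 9 without mutant replicate 6. Over all genes these 3 fits called 13.3%, 13.8% and 10.5%. It was 15 without wild type replicate 2, 20 without wild type replicate 3 and 21 without mutant replicate 4, where 20.0%, 22.3% and 29.3% of all genes were called. Cox7a2l, Cox8a, Ndufb11, Sdha and Uqcrfs1 were called in each of the 6 fits that left out 1 sample. With Y-linked transcripts as a covariate, chosen after seeing the data, 14 genes were called, all higher, 12 of them from the 22, where 17.2% of all genes were called. Osteoclast, osteoblast, epithelial and cartilage marker sums did not overlap between these groups, as given above for each list but the osteoblast one. The osteoblast sum was 113532 to 196563 CPM in wild type and 219081 to 262367 CPM in mutants. The sum of 3 macrophage genes was 249 to 319 against 455 to 526 CPM, and that of 8 erythroid genes 196 to 264 against 52.2 to 83.1 CPM. Sums also did not overlap for the endothelial, white fat, brown fat, ciliated cell and olfactory neuron lists. The part of cell makeup in the difference was not tested.

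In BALB/c 0 of the 87 genes changed by edgeR's test, where 0.136% of all genes did (0.0926% higher and 0.0432% lower). DESeq2 and limma-voom also called 0, where they called 2% and 0.272% of all genes. At an unadjusted p under 0.05 there were 9 genes, all lower in mutants, against 4.63% of all genes lower and 7.11% higher at that level. They were Uqcr11, Cox4i2, Ndufa4l2, Atp5l, Cox7a2, Atp5g1, Ndufa2, Atp5k and Ndufa13, with adjusted p from 0.276 to 0.425. The median over the 87 was -0.05, with 70 below 0, against 0.00 over all genes, and the sign turned to 0.02 once coding length was modelled. Beside this, the erythroid sum was 225 to 333 CPM in BALB/c wild type and 429 to 525 CPM in mutants, and the sum of 7 neutrophil genes 550 to 649 against 771 to 845 CPM, both without overlap, and their part was not tested. Uqcr11 measured 35.2, 33.3 and 34.0 CPM in wild type and 32.02, 29.2 and 30.4 CPM in mutants, and Sdha measured 129, 128 and 131 against 131, 138 and 142 CPM. Ranges were apart with mutants below in 14 genes, against 10% of all genes, and above in 1, against 9.93%.

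The difference between the 2 genotype effects was tested as an interaction, the effect in BALB/c minus the effect in C57BL/6. It used all 4 groups and shares its samples with the comparisons above. Of the 87 genes, 6 (6.9%) were called, fewer than the 10% of all genes, and all were negative, where 4.58% of all genes were negative and 5.46% positive. Among them were Uqcr11 (-0.36 ± 0.08, adjusted p = 0.0177), Uqcrfs1 (-0.28 ± 0.07, 0.0317), Cox8a (-0.32 ± 0.08, 0.0346), Cox4i1 (-0.35 ± 0.10, 0.0428) and Uqcrb (-0.39 ± 0.11, 0.0464). Uqcr11 went from 31.0, 30.4 and 31.0 CPM to 37.2, 34.8 and 34.1 CPM in C57BL/6 mutants, while in BALB/c the mutants were the lower group. Uqcrb, a small complex III subunit, measured 35.4, 42.3 and 40.2 against 41.1, 47.5 and 49.1 CPM in C57BL/6, with overlap, and 51.8, 49.2 and 53.6 against 45.6, 46.9 and 45.5 CPM in BALB/c, with none. The median over the 87 was -0.18, with 73 below 0, against 0.01 over all genes.

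Uqcr11 was called in 11 of the 12 fits that left out 1 sample, and the other calls were lost in more of them. With total counts the median of all genes moved by 0.231, the median of the 87 turned to 0.05 and only Ndufaf3 was called, with a positive sign, where 11.4% of all genes were called. With coding length modelled the median was -0.09 and again only Ndufaf3 was called, with a positive sign, where 9.69% of all genes were. The largest count of a single leave-one-out fit was 16, without C57BL/6 mutant replicate 4, where 19% of all genes were called. It was 9 without C57BL/6 wild type 3 and 6 without wild type 2 (11.3% and 8.73% of all genes). It was 0 without BALB/c mutant replicate 17, 1 without each of C57BL/6 mutants 5 and 6, BALB/c wild type 15 and BALB/c mutant 16, 2 without each of C57BL/6 wild type 1, BALB/c wild type 13 and BALB/c mutant 18, and 3 without BALB/c wild type 14, and these fits called 3.78% to 6.22% of all genes. DESeq2 called 19 genes, 18 of them negative, where it called 16.7% of all genes.

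Between the strains the differences were larger. In wild type mice 62 of the 87 genes (71.3%) differed, against 48.5% of all genes, with 60 higher in BALB/c (against 22.8%) and 2 lower (against 25.6%). In mutants 34 differed (39.1%, against 36.9%), with 31 higher (against 18%) and 3 lower (against 18.9%). The medians were 0.27 and 0.12, where those of all genes were 0.00. The wild type comparison called 25 of 36 genes of complex I, 4 of 4 of complex II, 7 of 8 of complex III, 10 of 14 of complex IV and 14 of 15 of complex V. The mutant comparison called 15, 1, 4, 8 and 5 of them, where 48.5% and 36.9% of all genes were called in the 2 comparisons. CPM ranges were apart with BALB/c above in 63 genes in wild type (27.3% of all genes) and 41 in mutants (25.4%), and below in 2 (30.1%) and 7 (24.8%). Marker sums differed too. The neutrophil sum was 215 to 386 CPM in C57BL/6 against 550 to 649 CPM in BALB/c wild type, and 110 to 244 against 771 to 845 CPM in mutants. In mutants the erythroid sum was 52.2 to 83.1 against 429 to 525 CPM and the osteoclast sum 7311 to 8152 against 4355 to 4984 CPM. In wild type both overlapped. The part of cell makeup was not tested. The 2 comparisons use different samples on the same 2 runs, and 31 genes were called in both, 30 in the same direction, which is 50% of the first list and 91.2% of the second. The overlap of the 2 comparisons was not counted over all genes, so whether it is particular to this set was not tested.

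The shift between strains moved with the length of the genes, and most of the set are short. Over all genes of wild type mice the median log2 difference was 0.34 for those with a coding length under 500 bases, 0.26 from 500 to 1000, 0.18 from 1000 to 2000, 0.02 from 2000 to 4000 and -0.23 above 4000. The 42 genes of the set between 500 and 1000 bases had a median of 0.34 and the 15 under 500 bases one of 0.33. With coding length modelled in each sample, the median of the 87 was 0.02 in wild type and -0.02 in mutants. The called genes were then 25 of 87 in wild type, 17 higher and 8 lower, where 40.5% of all genes were called, and 23 of 87 in mutants, 8 higher and 15 lower, where 32.7% of all genes were. Both are smaller shares than over all genes, and the excess of higher genes depends on this step. With total counts, 35 genes were higher and 2 lower in wild type, where 44% of all genes were called, and in mutants 43 were higher and 1 lower, where 36.8% of all genes were, with a median of 0.24. By complex, the wild type medians with length modelled were -0.01 for complex I, -0.04 for II, 0.11 for III, 0.07 for IV and 0.05 for V.

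**Figure D3:**
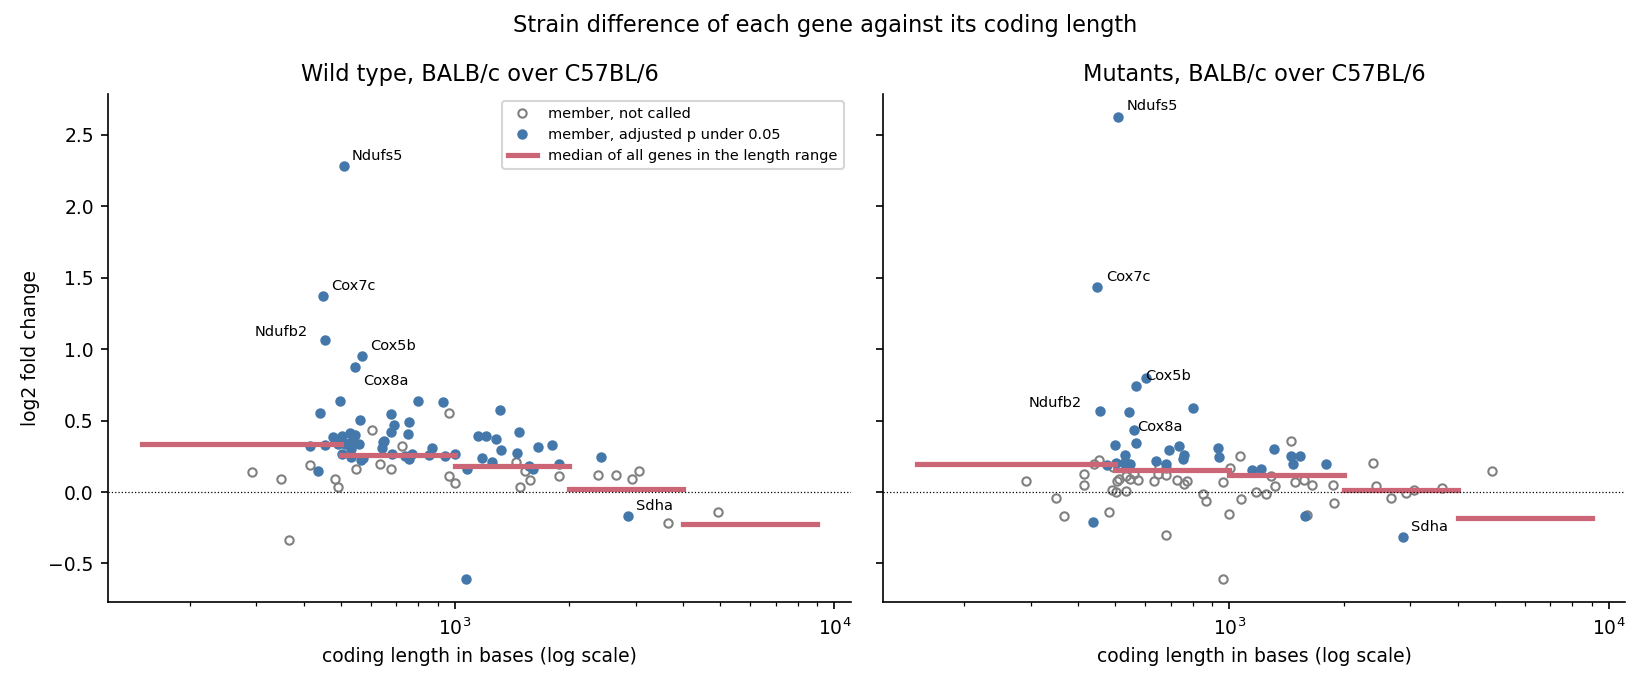
Each point is the log2 difference between strains (y axis, BALB/c over C57BL/6) of 1 of the 87 tested genes against its coding length in bases (x axis, log scale), in wild type mice (left) and mutants (right). Red lines are medians of all genes in a range of length. Most points lie near the red lines, with Ndufs5, Cox7c, Ndufb2, Cox5b and Cox8a above them in wild type and Sdha below.

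A few genes stood clear of the length trend. Cox7c, a small complex IV subunit (chromosome 13, 86044798 to 86046795), measured 18.8, 18.4 and 18.9 CPM in C57BL/6 wild type and 49.7, 46.3 and 49.1 CPM in BALB/c wild type. The mutants repeated this, at 17.2, 16.1 and 20.5 against 49.5, 46.4 and 49.4 CPM, and genotype did not separate them in either strain. The log2 difference was 1.37 ± 0.08 in wild type (a fold of 2.59, adjusted p = 5.18e-07) and 1.43 ± 0.08 in mutants (2.70-fold, adjusted p = 2.34e-07), and with length modelled it was 1.03 and 1.24. Of the 50-base words of its transcripts, 23.0% occur in other genes, all annotated as pseudogenes, and how the authors' counting treated reads from such words was not tested. One of these copies has a row in the count table, and this one, Gm10012, had at most 14 counts in any sample.

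Ndufs5 (chromosome 4, 123712710 to 123718186), an accessory complex I subunit, had the largest strain difference of the 87 genes and the lowest level of its complex. Its raw counts were 20, 8 and 10 in C57BL/6 wild type, 14, 8 and 2 in C57BL/6 mutants, 54, 42 and 60 in BALB/c wild type and 54, 56 and 32 in BALB/c mutants. The strains did not overlap in either genotype, with log2 differences of 2.28 ± 0.51 (adjusted p = 0.00321) and 2.63 ± 0.53 (adjusted p = 0.00228). Its level of 1.68 CPM per kb is out of scale with the other complex I genes, and 21.7% of its words are shared with the pseudogene BC002163. Whether read assignment set its level was not tested.

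Cox8a, Cox5b and Ndufb2 were also higher in BALB/c beyond the trend. Cox8a stood at 120, 111 and 128 CPM in BALB/c wild type, where C57BL/6 wild type was at 62.1 to 68.6 CPM (log2 0.88 ± 0.06, adjusted p = 1.26e-06, and 0.55 with length modelled). None of its words are shared with another gene. Cox5b measured 39.7, 42.8 and 44.4 CPM in C57BL/6 wild type and 82.2, 76.9 and 86.3 CPM in BALB/c wild type (log2 0.95 ± 0.07, adjusted p = 2.1e-06), with 21.8% of its words in another gene. Ndufb2 measured 10.4, 12.8 and 13.3 CPM against 26.3, 23.0 and 27.1 CPM (log2 1.06 ± 0.12, adjusted p = 3.57e-05). All 3 were called in mutants too, at 0.56, 0.74 and 0.57. Uqcrfs1 (0.58 and 0.30), Uqcrq (0.63 and 0.33), Atp5d (0.63 and 0.31) and Ndufab1 (0.64 and 0.59) were called higher in both genotypes, and with length modelled only Ndufab1 of these 4 was called in both.

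Sdha went the other way. It was the lower gene in BALB/c, at 129, 128 and 131 CPM in wild type against 137, 149 and 150 CPM in C57BL/6 (log2 -0.17 ± 0.05, adjusted p = 0.0202). In mutants the gap was 131, 138 and 142 against 168, 174 and 170 CPM (log2 -0.32 ± 0.05, adjusted p = 0.000684), and both stayed called with length modelled, at -0.21 and -0.35. The wild type call was lost with only the 2 groups in the fit (adjusted p = 0.0955), with only all-zero rows removed (0.0529), and without C57BL/6 wild type 2 (0.0728), C57BL/6 wild type 3 (0.0632) or BALB/c wild type 14 (0.0510), with the log2 difference at -0.15 to -0.16 in these fits. The other complex II genes were higher in BALB/c wild type (Sdhb 0.16, Sdhc 0.24, Sdhd 0.37), and for Sdhb the sign turned with length modelled. In mutants Uqcr11 (-0.21) and Ndufv3 (-0.16) were also lower in BALB/c. Both calls were lost with total counts and without C57BL/6 mutant 4 or BALB/c mutant 17. That of Ndufv3 was also lost without C57BL/6 mutant 6 or BALB/c mutant 18, with only the 2 groups, and with only all-zero rows removed. Ndufaf3 was lower in BALB/c wild type (-0.61 ± 0.19, adjusted p = 0.0173), at 6.46, 4.82 and 6.56 CPM against 10.6, 7.89 and 8.74 CPM, and was not called in mutants (0.25, adjusted p = 0.31). Its wild type call was lost without C57BL/6 wild type 1, without BALB/c wild type 14 and with the Y-linked covariate.

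**Figure D4:**
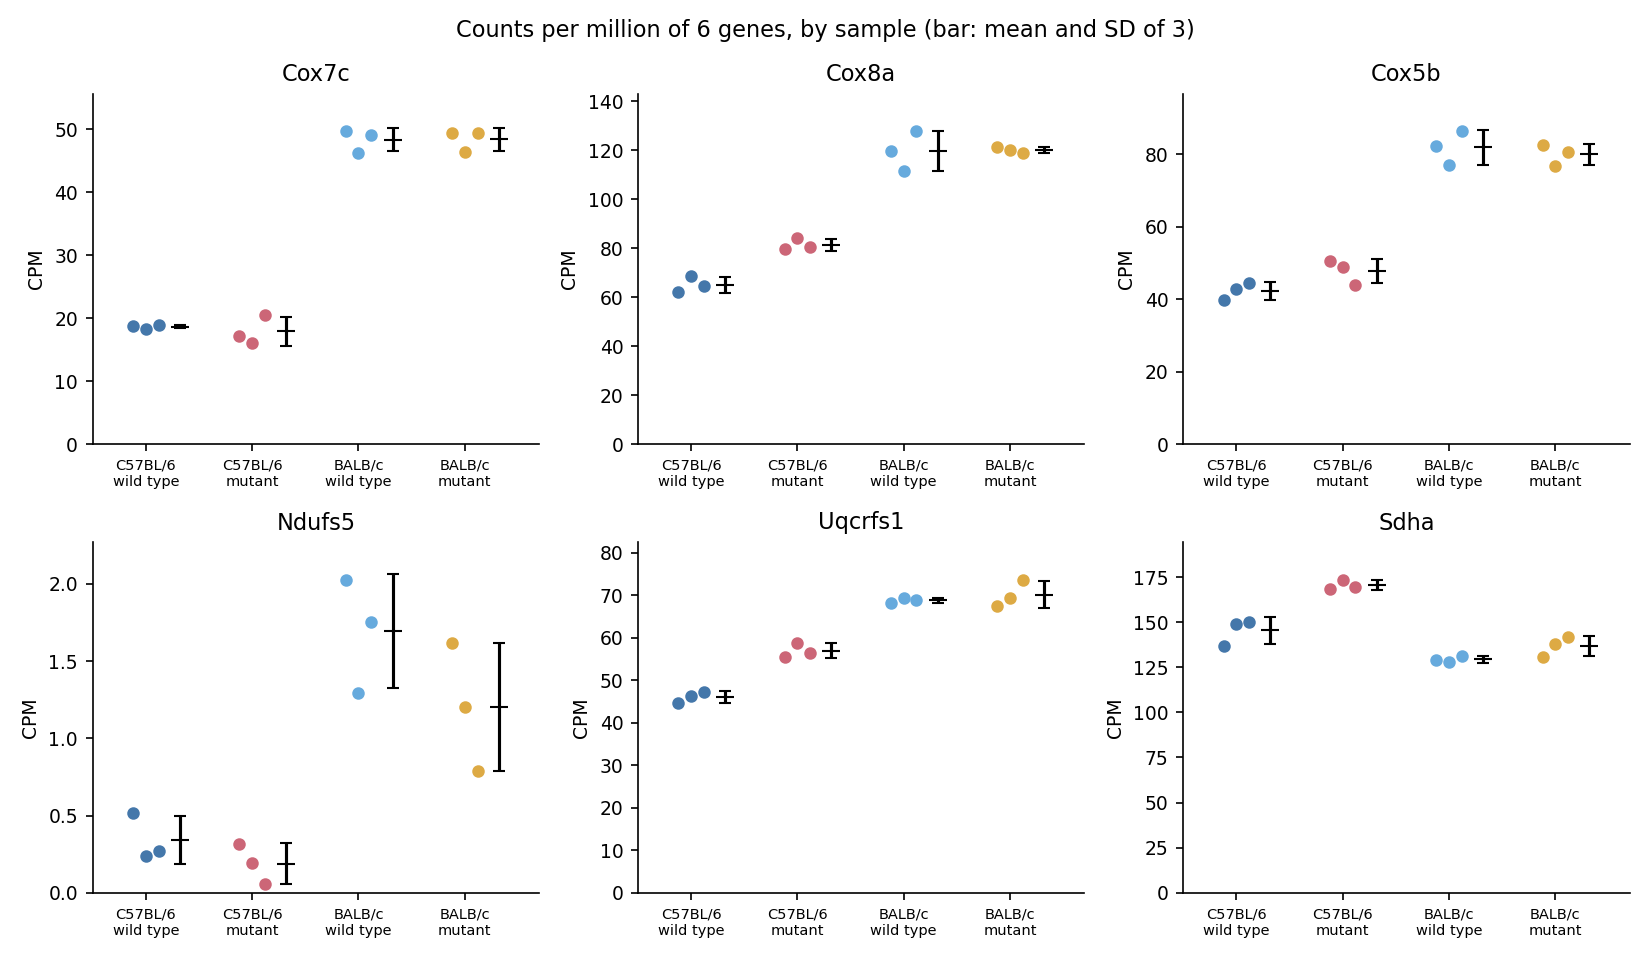
CPM (y axis, from 0) of 6 genes by group (x axis), with 1 point per sample and a bar for the mean and SD of 3. Cox7c, Cox8a, Cox5b and Ndufs5 are higher in both BALB/c groups than in both C57BL/6 groups, Sdha is highest in the C57BL/6 mutants at 168 to 174 CPM, and the C57BL/6 genotype step of Cox8a, Uqcrfs1 and Sdha is on the TMM scale.

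Complex IV is the complex with second forms of its subunits, and in this tissue the broad form was far above the restricted one in each pair. Cox4i1 lay between 130 and 217 CPM in the 12 samples and Cox4i2, the lung form, which is also responsive to oxygen, between 3.07 and 6.09 CPM. Cox6b1 lay at 61.1 to 78.9 CPM and Cox6b2, the testis form, at 2.81 to 7.19 CPM. Cox7a2 lay at 43.2 to 66.9 CPM and Cox7a1, the heart and muscle form, at 0.492 to 1.51 CPM. Among these restricted genes Cox6b2 alone passed a test: BALB/c mutants were at 5.34, 7.19 and 6.69 CPM and C57BL/6 mutants at 4.74, 2.81 and 3.50 CPM (log2 0.80 ± 0.20, adjusted p = 0.00869). The testis forms Cox8c, with 0 counts in each sample, which allows at most 6 counts or 0.225 CPM in the smallest library (3 events of 2 counts, since the deposited counts are all even), and Cox7b2, with 2 counts in 2 samples, were at or near 0.

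The muscle forms Cox6a2 and Cox8b failed the low count filter and followed muscle markers in 2 libraries. Cox6a2 had 26 counts in C57BL/6 wild type replicate 2 and 62 in BALB/c mutant replicate 16, and 0 to 8 in the other 10. Cox8b had 20 and 32 in those libraries and 0 to 8 in the others. The summed level of 12 skeletal muscle markers was 107 and 513 CPM in the same 2 libraries and 3.93 to 34.5 CPM elsewhere, with Acta1 at 31.7 and 155 CPM. The broad partners were also highest of their group there, by far less: Cox6a1 was at 100.2 CPM against 83.3 and 98.1 CPM, and at 123 against 117 and 109.7 CPM. Cox8a was at 68.6 against 62.1 and 64.5 CPM, and at 121 against 120 and 119 CPM.

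**Figure D5:**
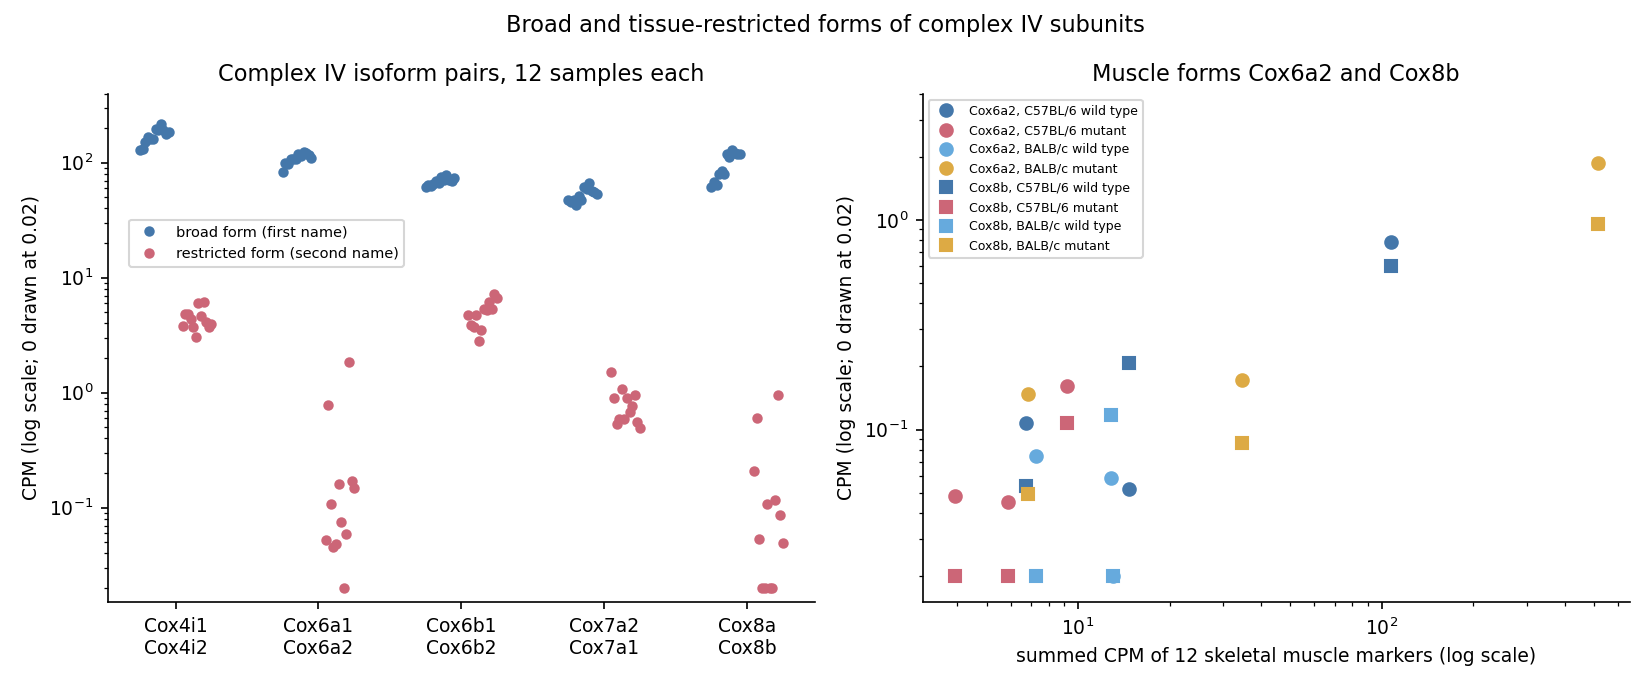
Left, CPM (y axis, log scale) of 5 pairs of complex IV genes in the 12 samples, the broad form in blue and the restricted form in red. Right, CPM of Cox6a2 and Cox8b (y axis, log scale) against the summed CPM of 12 skeletal muscle markers (x axis, log scale), with both genes highest in the 2 libraries at 107 and 513 CPM of muscle markers.

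Ndufa4l2, a relative of Ndufa4 known to respond to low oxygen, measured 15.3, 20.1 and 31.1 CPM in C57BL/6 wild type, 24.2, 38.4 and 31.4 CPM in C57BL/6 mutants, 30.4, 26.7 and 40.4 CPM in BALB/c wild type and 17.3, 22.2 and 22.0 CPM in BALB/c mutants. The BALB/c groups did not overlap and the C57BL/6 groups did, but no test passed (interaction -1.16 ± 0.35, adjusted p = 0.0543). Ndufa4 itself stayed between 59.8 and 68.8 CPM in all 12 samples and was not called in any of the 5 comparisons.

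Genes that serve the same pathway were taken from lists drawn up by function and read on the same TMM scale. In the C57BL/6 mutants 7 of 17 citric acid cycle genes (41.2%) rose, against 11.3% of all genes, and 0 fell, against 12.6%. Among them was Mdh2 (0.31 ± 0.07, adjusted p = 0.0101), which makes oxaloacetate. Mdh2 measured 124, 133 and 147 CPM in wild type and 168, 172 and 161 CPM in mutants, without overlap. Of 13 carriers and energy transfer genes 4 rose and 2 fell, where 23.9% of all genes were called: the phosphate carrier Slc25a3 (0.31) and the kinases that restrain pyruvate dehydrogenase, Pdk1 (0.27), Pdk2 (0.36) and Pdk4 (1.11), were higher. Pdk4 measured 23.8, 29.6 and 29.1 CPM in wild type and 46.9, 59.4 and 71.6 CPM in mutants. Of 25 other assembly factors, a list that leaves out Ndufaf1 to Ndufaf4, only Cox19 was called (-0.37). Of 76 mitochondrial ribosomal protein genes only Mrps28 was called (0.29), which is 1.32% of that list against 23.9% of all genes.
Among 19 tested regulators of mitochondrial gene expression 2 were called, 1 higher and 1 lower, where 23.9% of all genes were called. Nrf1, which binds the promoter word shown above, fell by 0.20 on the log2 scale, from 32.3, 32.3 and 32.1 CPM to 28.3, 27.7 and 28.1 CPM. The coactivator gene Ppargc1b rose (0.37 ± 0.11, adjusted p = 0.0280), from 9.04, 10.3 and 11.2 to 12.8, 12.7 and 13.7 CPM. In BALB/c 0 genes of any of these lists were called, where 0.136% of all genes were. Between strains in wild type mice 39 of the 76 mitochondrial ribosomal genes (51.3%) and 8 of 17 citric acid cycle genes (47.1%) were called, shares near the 48.5% of all genes. Of the ribosomal calls 38 were higher in BALB/c, and all 8 of the cycle were. Between strains in mutants 26 of the 76 ribosomal genes (24 higher in BALB/c, 2 lower) and 4 of the 17 cycle genes (1 higher, 3 lower, median log2 0.015) were called, against 36.9% of all genes. These lists were not counted with coding length modelled, so the part of the length trend in them was not tested. Nrip1, a corepressor of respiratory genes, was lower in BALB/c in both genotypes, at 3.53, 3.89 and 2.93 against 16.8, 17.5 and 19.1 CPM in wild type (log2 -2.37 ± 0.15, adjusted p = 8.3e-07).

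The authors' deposited table of comparisons lists q-values for 88 of the 91 genes. For genotype in C57BL/6 the authors' deposited table gives a q under 0.05 for 28 of them, 25 of them higher in mutants, where 25.3% of all genes with a q did. It has 0 for genotype in BALB/c, where 1.43% of all genes did. For strain, the authors' deposited table gives 65 in wild type, where 45.3% of all genes with a q pass, and 44 in mutants, where 36.1% do. Of these, 64 and 41 are higher in BALB/c.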

How the data were processed

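RNA was sequenced from 12 frontal bone samples, 3 per group. The authors deposited a table of raw read counts per gene with a coding length for each gene, and a table of their own comparisons that holds log2 fold changes and adjusted p-values (q-values). TopHat2 2.0.6, HTSeq, DESeq2, bcl2fastq and the build mm10 are named in the submitters' processing notes, and the strand setting of counting is not given in the sources used here. Every count in the deposited table is even (0 odd counts), 26 identifiers occur more than once, and 0 value columns belonged to no sample.

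The counts were fitted with edgeR 4.0.16 in R 4.3.3, with 4 group means, TMM factors, a low count filter (minimum 10 per gene, 15 in total) and the quasi-likelihood test with Benjamini-Hochberg adjustment over 16190 genes. CPM are TMM-scaled. Coding length and GC (known for 97.9% of rows) were modelled as alternatives by a smooth curve per sample, and DESeq2 1.42.0 and limma 3.58.1 were run as alternatives. The fits were tested on simulated data. Uniqueness was measured as the percent of 50-base words of a gene's GENCODE transcripts that occur in another gene.

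The members and lists were chosen with earlier results of these data known. Named genes are isoform pairs, the genes of smallest adjusted p and largest change per complex and comparison, the highest and lowest of each complex, complex II and Cycs, and up to 2 genes of smallest adjusted p per list and comparison. Other names were chosen after their values were seen. Some results of single genes are not reported here, and counts over the set include all its genes.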

Additional observations from a re-analysis of the deposited data

Results flagged for a closer look

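Each gene named here was called on the TMM scale by the interaction term of edgeR's quasi-likelihood test with Benjamini-Hochberg adjustment. Values are the BALB/c genotype effect minus the C57BL/6 effect on the log2 scale. With total counts, or with coding length modelled, none of the complex III and IV genes below kept its call. The alternatives for Mdh2, Dld and Nrf1 are not reported here. In complex III these were Uqcr11 (-0.36), Uqcrb (-0.39) and Uqcrfs1 (-0.28). Complex IV gave Cox4i1 (-0.35) and Cox8a (-0.32). In the citric acid cycle list Mdh2 (-0.35) and Dld (-0.30) were called, 11.8% of that list against 10% of all genes. The regulator Nrf1 went the other way (0.28): it measured 32.3, 32.3 and 32.1 CPM in C57BL/6 wild type, 28.3, 27.7 and 28.1 CPM in C57BL/6 mutants, 33.5, 32.4 and 32.1 CPM in BALB/c wild type and 36.2, 31.7 and 35.8 CPM in BALB/c mutants.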

How the results depend on the processing

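No paired analysis was possible because the groups share no replicate numbers. For genotype in C57BL/6, 22 genes became 9 with total counts (28.9% of all genes called, median -0.076), 3 with only the 2 groups (9.21%) and 14 with the Y-linked covariate (17.2%). Leaving out each sample gave 8 to 21, where 10.5% to 29.3% of all genes were called, with 8 without wild type replicate 1 or mutant replicate 5 and 9 without mutant replicate 6. With total counts 5 of the 22 changed sign (Atp5g2 at -0.046, Sdhc at -0.0011, and Ndufa10, Uqcrc1 and Uqcrc2 between these). For genotype in BALB/c the median turned to 0.019 with coding length and 0.017 with length and GC. For the interaction, 6 genes became 19 with DESeq2 (16.7% of all genes called) and 3 with only all-zero rows removed (6.59%). The count was 1 with total counts (11.4%, median 0.052), 1 with length (9.69%, median -0.085) and 2 with length and GC (10.8%, median -0.086). Leaving out each sample gave 0 (without BALB/c mutant replicate 17) to 16 (without C57BL/6 mutant replicate 4), where 4.64% and 19% of all genes were called. For strain in wild type, 62 became 37 with total counts (44% of all genes called, median 0.160). The count was 25 with length (40.5%, median 0.018) and 28 with length and GC (40.6%, median 0.023). Of the 62 genes, 19 turned negative with length and 20 with length and GC. Among the genes whose alternatives are reported here these were Cox6b1 (-0.062 with length, -0.048 with length and GC), Ndufb11 (-0.017, -0.024), Uqcr11 (-0.19, -0.30), Ndufa8 (-0.040, -0.069) and Sdhb (-0.086, -0.104), and, only once GC was added, Cox6a1 (-0.17) and Atp5g2 (-0.16), while Cyc1, outside the 62, turned to -0.013. For strain in mutants the median was 0.240 with total counts, -0.023 with length and -0.037 with length and GC. Of the 34 genes called there, 3 turned negative with length (Atp5j2, Cox7a2l and Ndufa10) and 4 with length and GC (Cox4i1, Cox7a2l, Ndufa10 and Ndufb7), including Cox7a2l at -0.022 and -0.0097 and Cox4i1 at -0.037 with length and GC; Ogdh, outside the 34, turned to 0.011 with length. The causes of these shifts were not tested. Of the other values of named genes, 5234 kept direction and side of the threshold, 386 lost their call and 114 gained one. Depth limits Ndufs5 and the muscle and testis forms, where single samples hold few counts.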

Other observations

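Ldhb and Ckmt1, from the list of carriers and energy transfer genes, fell by more than the called respiratory genes in the C57BL/6 mutants. Ldhb, which turns lactate to pyruvate, measured 87.7, 49.9 and 56.6 CPM in C57BL/6 wild type, 47.7, 22.7 and 23.4 CPM in C57BL/6 mutants and 17.3 to 21.9 CPM in the 6 BALB/c samples. Ckmt1, a mitochondrial creatine kinase, measured 26.0, 14.8 and 15.6 CPM, then 9.26, 0.534 and 1.08 CPM, and 1.05 to 1.80 CPM in BALB/c. The log2 changes were -1.05 ± 0.27 (adjusted p = 0.0170) and -2.36 ± 0.74 (adjusted p = 0.0381) by edgeR's quasi-likelihood test. Epithelial and cartilage markers were also higher in the C57BL/6 wild type samples and in mutant replicate 4 than in mutant replicates 5 and 6, and their part in these values was not tested.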
